A study of Mus musculus with 6 samples.

Results

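The genes described here carry the names of the proteins of the cytosolic ribosome. They were chosen by name: symbols of the form *Rpl* or *Rps* with a number, plus *Rplp0*, *Rplp1*, *Rplp2* and *Rpsa*, without the *Rps6k* kinases and numbered pseudogenes, and with at least 60 fragments summed over all libraries. The names matched 89 of the 52073 genes with a symbol, and 81 reached the minimum. Of these, 48 carried large subunit names and 33 small subunit names, and 1, *Rps4l*, is annotated as a transcribed processed pseudogene. The rule used no difference between groups. RNA came from the prefrontal cortex of 3 *Pla2g4e* knockout (KO) and 3 wild-type (WT) mouse samples, and polyadenylated RNA was sequenced in 6 strand-specific libraries. Per the study's methods, the constitutive KO line is C57BL/6N-Atm1Brd Pla2g4etm2a, whose allele is predicted to be null through splicing to a LacZ trap. *Pla2g4e* encodes a calcium-dependent phospholipase that makes N-acyl phospholipids, and the comparison asks which transcripts differ in the cortex of the KO line. The labels name no treatment, age, sex, litter or batch, and do not say that each sample is a separate animal. The p-values below therefore measure the spread between these samples, which may be partly technical.

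A cytosolic ribosome holds a small subunit, which reads the mRNA, and a large subunit, which joins amino acids, and each ribosomal protein is normally present once per ribosome apart from the stalk proteins P1 and P2. The mRNAs start with a C followed by a run of pyrimidines, the 5′ terminal oligopyrimidine (TOP) tract, through which mTORC1 and the RNA-binding protein LARP1 control their translation and stability. In neurons these mRNAs are also carried into axons and dendrites, where ribosomal proteins can be made locally. Mammalian genomes hold many processed pseudogenes of ribosomal protein mRNAs, so short reads from these genes often match several places.

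The start of the transcript is the feature that these genes are best known to share, and it is shown for 6 members with the tract and 2 without it at their annotated start. Each line gives 10 bases before and 20 bases from the annotated first base, in the RefSeq annotation of GRCm38.p6, 5′ to 3′ on the gene's strand, and capitals mark the unbroken pyrimidine run that begins with C at the first base.
Rpl15, chr14:18270967-18270996, minus strand: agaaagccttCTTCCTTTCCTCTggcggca
Rpl35, chr2:39005112-39005141, minus strand: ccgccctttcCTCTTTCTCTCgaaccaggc
Rps10, chr17:27635225-27635254, minus strand: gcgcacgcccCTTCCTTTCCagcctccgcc
Rps6, chr4:86857348-86857377, minus strand: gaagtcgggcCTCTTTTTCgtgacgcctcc
Rps27, chr3:90213629-90213658, minus strand: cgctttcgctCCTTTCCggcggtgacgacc
Rplp2, chr7:141447641-141447670, plus strand: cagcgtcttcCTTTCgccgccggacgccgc
Rps26, chr10:128626487-128626516, minus strand: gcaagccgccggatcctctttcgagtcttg
Rps2, chr17:24720053-24720082, plus strand: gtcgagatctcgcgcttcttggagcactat
The run was 13 bases long in *Rpl15*, 10 in *Rps10*, 9 in *Rps6* and 5 in *Rplp2*. *Rps26* and *Rps2* have pyrimidine stretches a few bases to the right of the annotated start instead.

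Promoter sequences from the RefSeq table matched 60 of the 81 members, with 71 annotated starts, and were compared as a description with all 32851 starts in that table. A first base C followed by at least 4 pyrimidines was found at 13 member starts (18.3%) and at 2.51% of all starts. A C followed by at least 6 pyrimidines within 30 bases of the start was found at 40 (56.3%) and at 26.5% of all starts. In the 300-base windows, on either strand, CCGGAAG (the core that ETS-family factors bind) occurred in 36.6% of member windows and in 8.86% of all. AAGATGGC (the core of YY1 sites) occurred in 11.3% and 2.75%, and TATAAA (the TATA box) in 9.86% and 13.6%. A match is only a match of letters, and the last letters of CCGGAAG and the first of AAGATGGC can overlap.

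Libraries held 11792463 to 14594230 counted fragments, of which 6.13 to 7.41% were mitochondrially encoded. *Pla2g4e* itself (ENSMUSG00000050211.15, GRCm39 chr2:119996893-120075816, minus strand) was counted at 5.94, 8.12 and 7.96 CPM (counts per 1e6 counted fragments after TMM scaling, here as elsewhere) in the KO libraries and at 7.83, 11.3 and 13.2 in WT. It was lower in KO on average, the groups overlapped, and it did not pass the adjusted threshold (log2 fold change -0.55 ± 0.21 SE, adjusted p = 0.635 in limma-voom), with fragments summed over all exons. The 8 neuron markers summed to 10616 to 12600 CPM, against 217 to 313 CPM for the 7 striatal markers in KO and 153 to 285 in WT, so RNA of both was present in every library. WT replicate 2 stood apart in *Ttr*, the choroid plexus transthyretin gene, at 26.8 CPM against 0.251 to 2.12 elsewhere. Y-linked genes were at or near 0 in KO replicate 1 and WT replicate 1 and expressed in the other 4 libraries. In bulk tissue, fewer cells of a type and less RNA per cell cannot be told apart.

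The 81 members held 87204 to 115595 fragments per library, or 0.701 to 0.792% of all counted fragments. Levels between genes were compared as CPM per kilobase of exon, with all exons of a gene as its length. The median member stood at 42.1 CPM per kilobase, with quartiles of 22.9 and 62.1, and 14 members were above 100. Large subunit members had a median of 40.0 and small subunit members of 46.7. The highest level was 229 times the lowest, or 100.5 times over the 80 members with a coding transcript length, the alternative given below.

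*Rplp1*, an acidic protein of the stalk that recruits translation factors, had the highest level, at 469 CPM per kilobase on average. *Rps15*, a protein of the small subunit head, followed at 369. *Rpl4*, which lines the exit tunnel of the nascent chain, stood at 166, *Rpl41*, which encodes a very short and basic peptide, at 159, and *Rpl17*, also of the tunnel, at 146. At the other end were *Rps4l*, a transcribed copy of *Rps4x*, at 5.90, *Rpl24*, at the subunit interface, at 3.07, and *Rps10*, of the small subunit head, at 2.05. Neighbours in this order were mostly not separable: in only 3 of 80 neighbouring pairs did the 6 libraries of one gene not overlap those of the next.

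**Figure D1:**
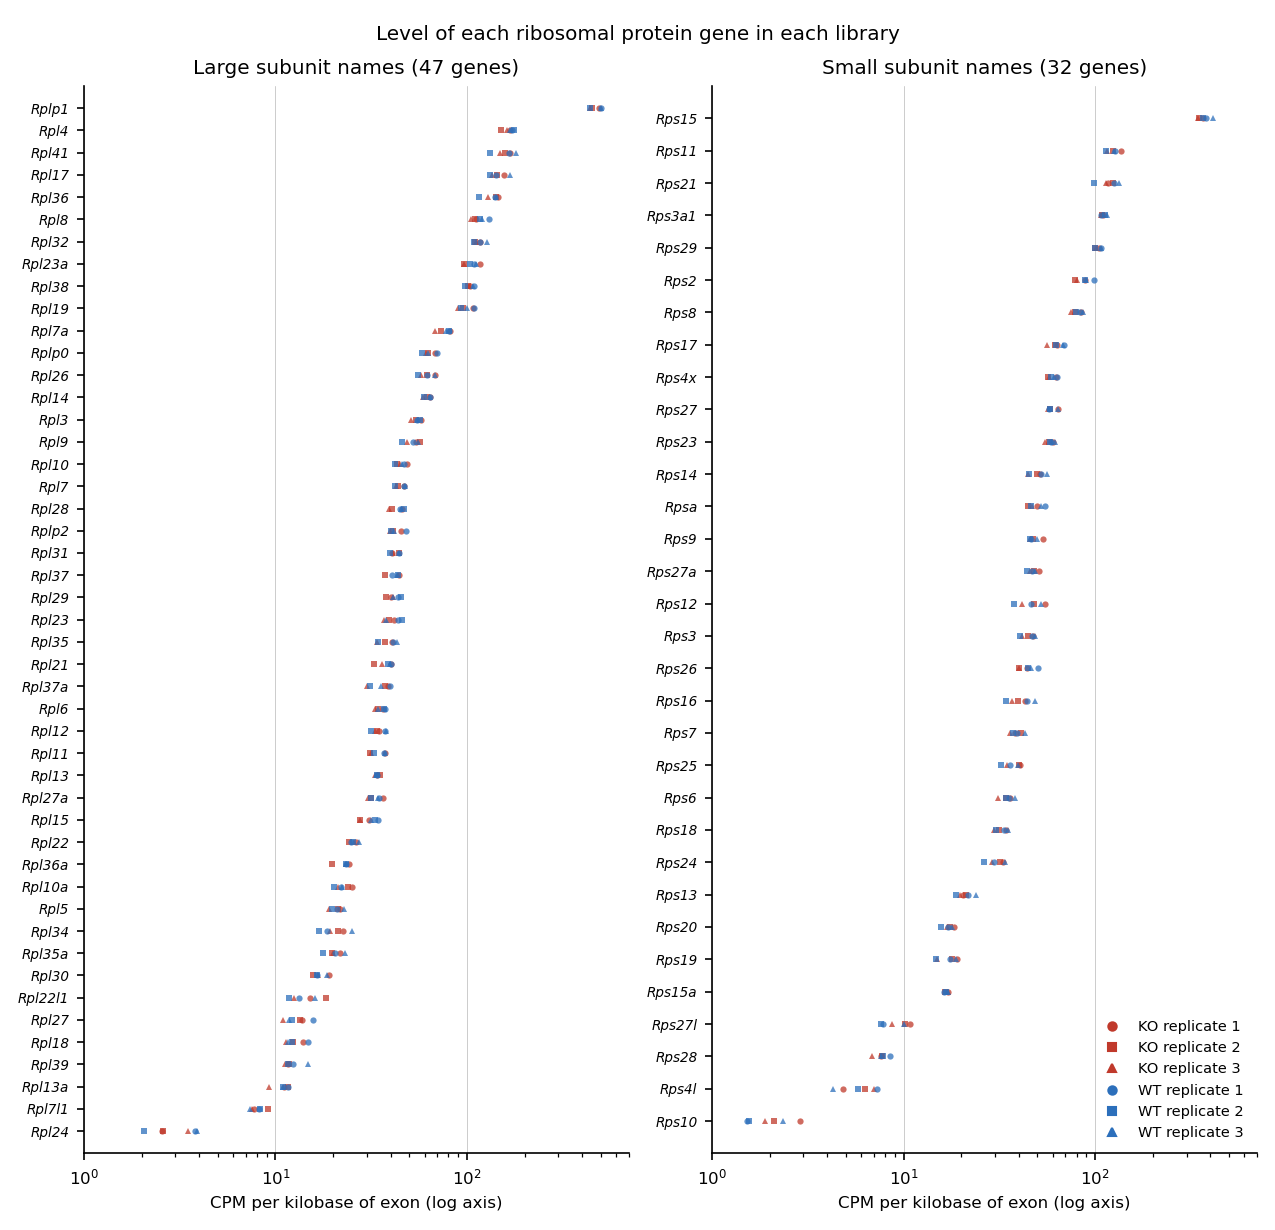
Level of each member in each library, in CPM per kilobase of exon on a log axis, with 47 large subunit members on the left and 32 small subunit members on the right. Red marks are KO and blue marks WT, and circle, square and triangle are replicates 1, 2 and 3. *Rplp1* (469) and *Rps15* (369) stand above all other members, and *Rpl24* (3.07) and *Rps10* (2.05) at the bottom of their panels.

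The scale depends on the length used. With the length of the lowest-numbered coding transcript, an alternative chosen after the data were seen, the median was 101 in place of 42.1 CPM per kilobase, since the median length is 768 bases in place of 1781. The ranks under both lengths correlated at a Spearman rho of 0.72 over 80 members, as a description. Of the 5 highest members, 4 were the same. *Rpl4* fell from rank 3 to rank 8 and *Rps15* from rank 2 to rank 3. *Rpl24* and *Rps10* stayed lowest among members with a coding transcript.

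By the default of the counting tool, fragments that match several places or several genes are left out of the counts. Over 80 members with a coding transcript, 40 shared more than 50% of their 50-base stretches with a transcript of another annotated gene. The share was 98.6% in *Rps27*, 92.1% in *Rpl10*, 81.7% in *Rpl24* and 78.2% in *Rps10*, but 7.86% in *Rpl8* and 2.96% in *Rps3*. Across members, level and share gave a Spearman rho of 0.03 over 80 genes, which are not independent. In 27 members some exon bases lie in an exon of another gene on the same strand, and in 3 over 20% do so: *Rpl24* (47.0%, shared with Gm28037), *Rpl13a* (35.4%) and *Rps10* (20.6%, shared with RPS10-NUDT3). The 300 named ribosomal protein pseudogenes in the tables received 342 to 498 fragments per library in all, and 139 of them had any.

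**Figure D2:**
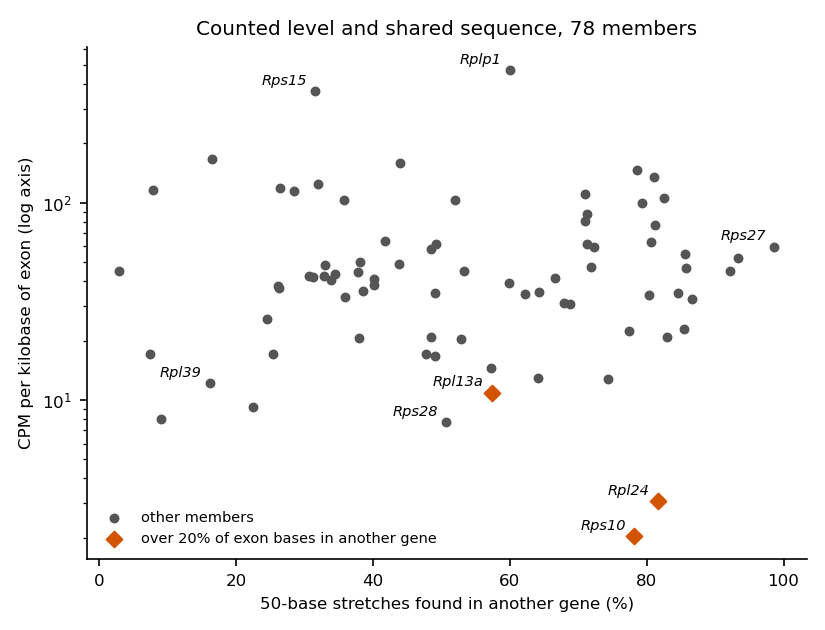
Mean CPM per kilobase of exon (log axis) against the percentage of 50-base stretches found in another gene, for 78 members; each point is a gene. Orange diamonds are the 3 members with over 20% of their exon bases in another gene on the same strand, and *Rpl24* and *Rps10*, the 2 lowest levels in the plot, are among them.

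Of the 8 named genes below the minimum, 5 are listed as processed pseudogenes and 3 are coding paralogues. *Rps3a3* with 16 fragments and *Rpl3l* with 33 lay just outside the minimum, while *Rpl24* with 244 and *Rps10* with 370 lay just inside it. *Rpl10l*, known from testis, had 0 fragments in all 6 libraries against 7203 for *Rpl10*, which allows a share of up to 0.0416% of the pair by counting error alone. *Rpl39l*, also known from testis, had 1 fragment.

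The members' level varied between libraries of one genotype, and most members deviated in the same direction in a library. Summed over all members, the level was 7808, 7299 and 7014 CPM in KO replicates 1, 2 and 3 and 7759, 7139 and 7917 CPM in WT replicates 1, 2 and 3. The KO mean was 7374 ± 402 CPM and the WT mean 7605 ± 411 CPM (SD, n = 3), a log2 ratio of -0.04, and the groups overlapped. The ratio ran from -0.01 without KO replicate 3 to -0.09 without WT replicate 2. KO replicate 3 and WT replicate 2 were low, and KO replicate 1, WT replicate 1 and WT replicate 3 were high. In KO replicate 3 only 6 of 81 members were above their own mean of all libraries, and in WT replicate 2 only 19, against 65 in KO replicate 1, 63 in WT replicate 1 and 68 in WT replicate 3. The median deviation from that mean ran from -0.10 in KO replicate 3 to 0.08 in WT replicate 3 on the log2 scale. Within one genotype, the summed level differed by 1.11-fold between KO replicates 1 and 3 and by 1.11-fold between WT replicates 3 and 2.

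Mitochondrially encoded RNA took 7.41, 6.38 and 6.72% of fragments in the KO libraries and 6.48, 6.13 and 7.39% in WT, so that KO replicate 1 and WT replicate 3 were highest in both measures, and its part in the member levels was not tested. Nuclear genes for the mitochondrial ribosome, a separate machine, had their highest median deviation in WT replicate 1 (0.12) and their lowest in KO replicate 3 (-0.04). The nuclear genes of the respiratory chain ranged from -0.09 in KO replicate 3 to 0.12 in WT replicate 1. The sum of neuron markers was highest in WT replicate 2 (12600 CPM) and KO replicate 3 (11888 CPM), the libraries where the members were lowest, and its part was not tested.

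**Figure D3:**
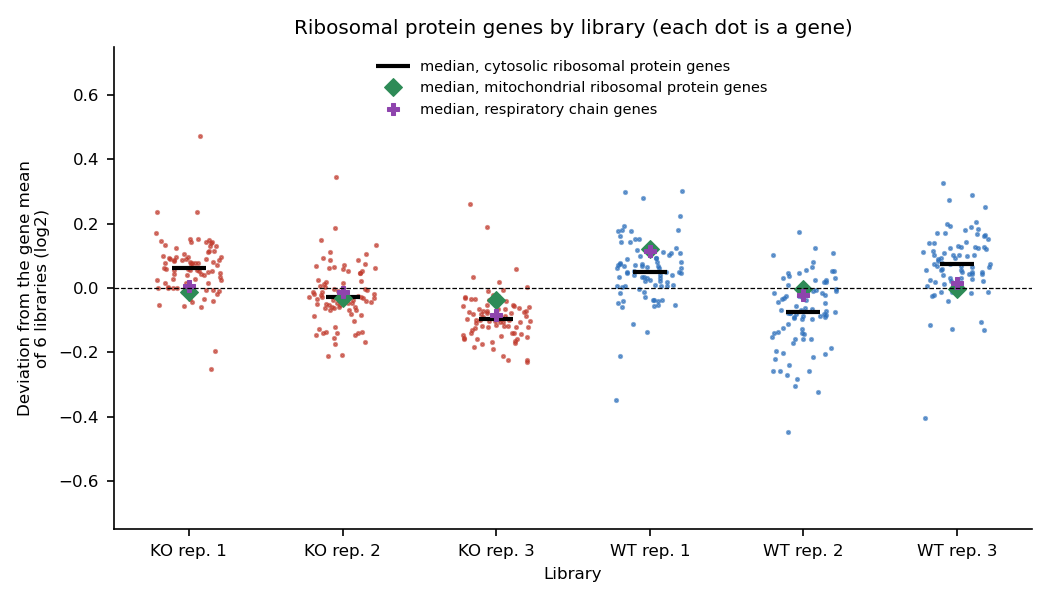
Deviation of each member from its mean over 6 libraries (log2 of CPM), by library; each dot is a gene, red for KO and blue for WT. The black bar is the median of the 81 members, the green diamond that of the mitochondrial ribosomal protein genes and the purple cross that of the respiratory chain genes; the black bar is lowest in KO replicate 3 (-0.10) and highest in WT replicate 3 (0.08).

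Between KO and WT, no member passed the adjusted threshold in limma-voom (0 of 81, background 0% of 19084 genes tested), and the lowest adjusted p of a member was 0.635. At an unadjusted p under 0.05, 5 of 81 members (6.17%) were called, each lower in KO, against 7.81% of all genes tested in either direction, 3.44% lower and 4.38% higher. In limma-voom the members' share was thus below that of all genes with both directions counted, and above it among calls lower in KO. edgeR's quasi-likelihood test and DESeq2 also called 0 members after adjustment and 5 without it, each lower in KO. The share over all genes was 7.9% in edgeR (3.31% lower) and 4.73% in DESeq2 (2.43% lower), so that with both directions counted the members' share was above it in DESeq2. The unadjusted count changed when single libraries were left out: it was 8 (9.88%) without KO replicate 1 and 9 (11.1%) without WT replicate 2, each lower in KO, against 4.44 and 4.13% of all genes. Without WT replicate 3 it was 8, of which 6 were lower and 2 higher, against 11.82% of all genes. It was 1 (1.23%) without KO replicate 2 or WT replicate 1, lower in KO, against 7.44 and 5.38% of all genes, and 1, higher in KO, without KO replicate 3, against 8.05%. The members' share was thus above or below that of all genes depending on the library left out. The direction was uneven: 58 members were lower and 23 higher in KO, or 71.6% lower against 48.1% of all genes, with a median log2 fold change of -0.04 against 0.01. Because members deviate together within a library, these 81 values are not independent, and no p is given for them. The direction depended on the samples and on the removal of trends with length, GC content and level together. Without KO replicate 3, 44 of 81 were lower, and 34 of 81 after those trends were removed, where the median was 0.01.

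The intervals bound how large a difference could have gone unseen for a single gene. The 95% interval lay within 1.5-fold in either direction for 78 of 81 members and within 1.2-fold for 50, and the median distance from estimate to limit was 0.17 on the log2 scale. The exceptions at 1.5-fold were *Rps10*, *Rpl24* and *Rps27l*. The point estimate was within 1.2-fold for 80 members, all except *Rps10*. The median standard error was 0.08 in the members and 0.14 over all genes. The median spread between replicates of a group was 7.15% of the level, and the median spread that counting alone would give was 3.08%.

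Large subunit members were lower in KO in 37 of 48 genes, with a median log2 fold change of -0.04, and summed to 4329 ± 239 CPM in KO, against 4477 ± 203 in WT (SD, n = 3). Small subunit members were lower in 21 of 33, with a median of -0.05, and summed to 3045 ± 165 CPM in KO, against 3128 ± 213 in WT. The sums of both groups overlapped between genotypes. Of the 48 large subunit members 3 were called without adjustment, and of the 33 small subunit members 2, each lower in KO, where 7.81% of all genes were called in either direction and 3.44% lower.

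**Figure D4:**
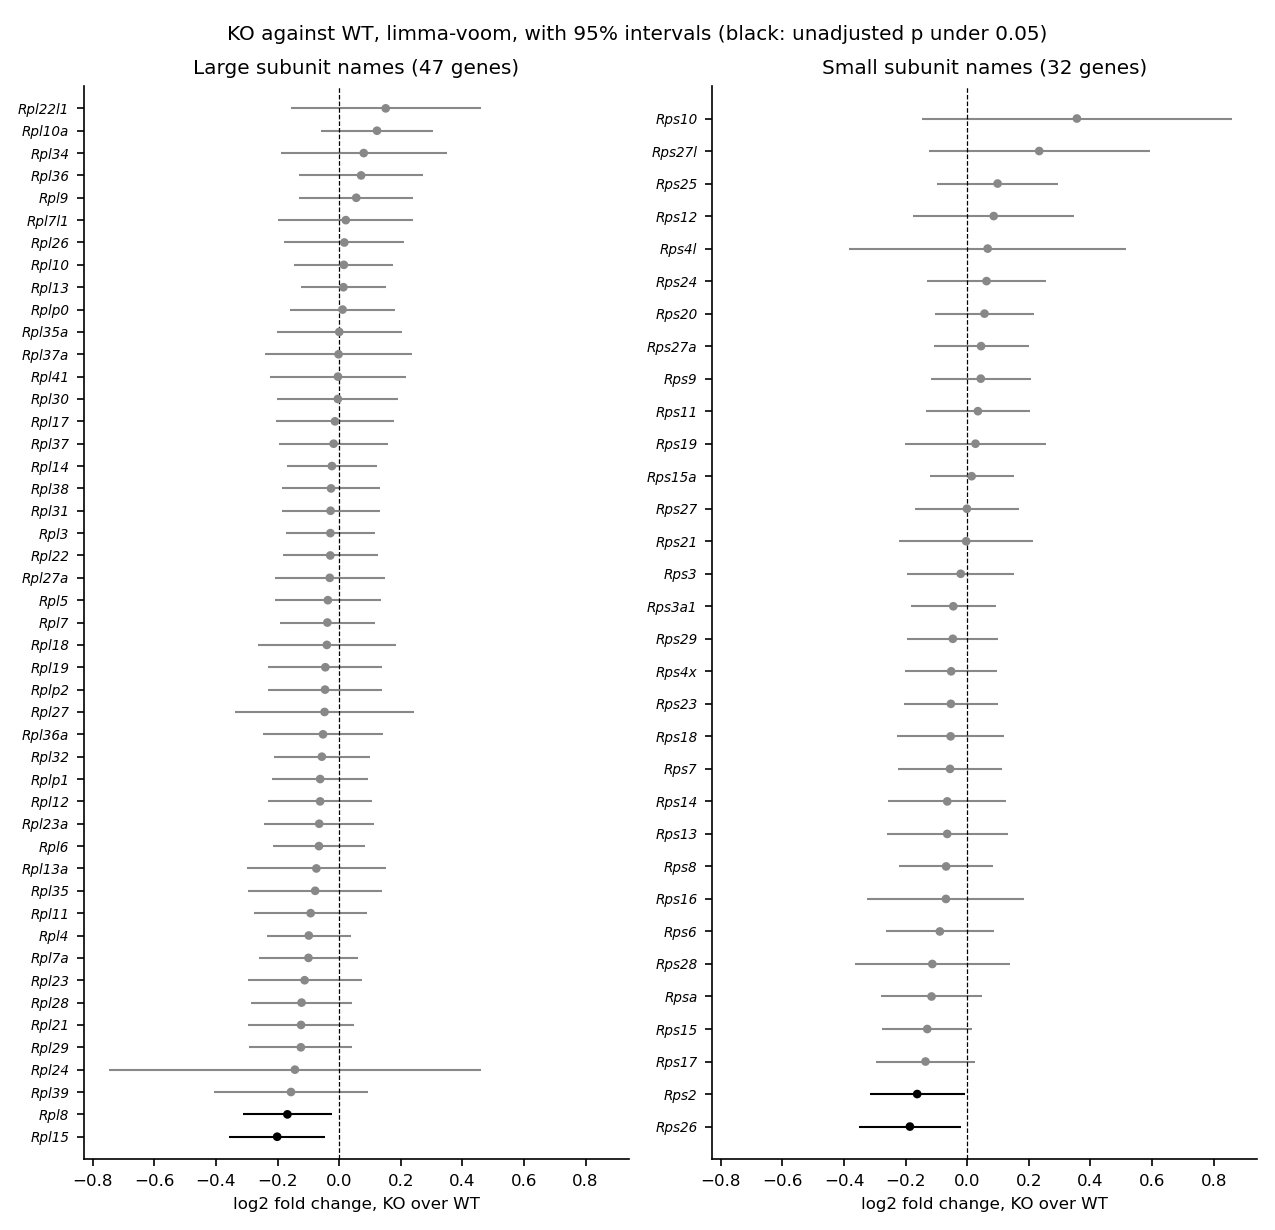
log2 fold change of KO over WT for each member with its 95% interval from limma-voom, by subunit name; points are estimates, and black marks the 4 of the 79 members drawn with an unadjusted p under 0.05. Most intervals cross 0 and lie between -0.4 and 0.4, and those of *Rps10* and *Rpl24*, at a few CPM, are the widest.

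The 5 members of lowest p were all lower in KO, and 4 of them are described here. *Rpl15*, a large subunit protein gene whose transcript start carries the 13-base pyrimidine run, was counted at 75.9, 68.7 and 68.5 CPM in the KO libraries, against 84.7, 82.1 and 78.4 in WT. Every KO library was below every WT library, with means of 71.0 ± 4.18 and 81.7 ± 3.18 CPM (SD, n = 3), and a log2 fold change of -0.20 ± 0.07 SE. In limma-voom the unadjusted p was 0.0157 and the adjusted p 0.635. It lies at GRCm39 chr14:4198305-4201873, plus strand, in the files' build, which places it on the other strand than GRCm38.p6, and 67.9% of its 50-base stretches also occur in other genes.

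*Rpl8*, whose protein lies beside the peptidyl transferase centre, was counted at 151.9, 149.4 and 142.3 CPM in the KO libraries, against 177.3, 158.6 and 162.8 in WT. It lies at GRCm39 chr15:76788278-76790514, plus strand. The groups did not overlap (log2 fold change -0.17 ± 0.07 SE, unadjusted p = 0.0271 in limma-voom), and little of its sequence is shared with other genes. *Rps26* (GRCm39 chr10:128460403-128462616, minus strand), which contacts mRNA at the exit channel, had 68.2, 61.9 and 62.0 CPM in the KO libraries, against 78.1, 69.2 and 71.6 in WT, again without overlap (-0.19 ± 0.08 SE, unadjusted p = 0.0303 in limma-voom). *Rps2* (GRCm39 chr17:24937090-24940903, plus strand), at the mRNA entry channel, had 161.3, 144.2 and 147.4 CPM in the KO libraries, against 180.5, 162.4 and 164.3 in WT, and the highest KO library was just below the lowest WT library (-0.16 ± 0.07 SE, unadjusted p = 0.0398 in limma-voom).

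These 4 genes without overlap were 4.94% of the members, against 13% of all genes tested without overlap in either direction and 6.29% lower in KO. Over 19 alternative fits the log2 fold change of *Rpl15* ran from -0.25 to -0.15, *Rpl8* from -0.20 to -0.08, *Rps26* from -0.23 to -0.13 and *Rps2* from -0.21 to -0.07. Their adjusted p over these fits was between 0.312 and 0.999 in each tool run.

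The 5 members of lowest p that were higher in KO had p-values of 0.15 or more. *Rps10* had 6.62, 4.85 and 4.37 CPM in the KO libraries, against 3.53, 3.60 and 5.41 in WT. The groups overlapped (log2 fold change 0.36 ± 0.23 SE, unadjusted p = 0.150 in limma-voom), and its level rests on 370 fragments in all. Over left-out libraries its log2 fold change ran from 0.16 to 0.56, and it was 0.05 in the 4 libraries with Y-linked expression. *Rpl10a*, a protein of the large subunit's mobile L1 stalk, had 61.1, 57.9 and 51.3 CPM in the KO libraries, against 53.2, 49.2 and 53.8 in WT (0.12 ± 0.08 SE, unadjusted p = 0.166 in limma-voom). *Rps27l*, a paralogue of *Rps27* that p53 induces, had 8.85, 8.29 and 7.10 CPM in KO against 6.34, 6.22 and 8.16 in WT, with overlap (0.23 ± 0.17 SE, unadjusted p = 0.183 in limma-voom). *Rps25*, which some viral internal ribosome entry sites require, had 109.2, 107.6 and 93.0 CPM in the KO libraries, against 96.4, 86.4 and 106.8 in WT (0.10 ± 0.09 SE). *Rpl22l1*, a paralogue of *Rpl22*, had 30.1, 36.3 and 24.9 CPM in the KO libraries, against 26.3, 23.3 and 31.9 in WT (0.15 ± 0.14 SE). KO and WT overlapped in each of the 5. Over left-out libraries the log2 fold change of *Rpl10a* ran from 0.06 to 0.19, that of *Rps27l* from 0.16 to 0.36, that of *Rps25* from 0.02 to 0.17 and that of *Rpl22l1* from 0.02 to 0.28.

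**Figure D5:**
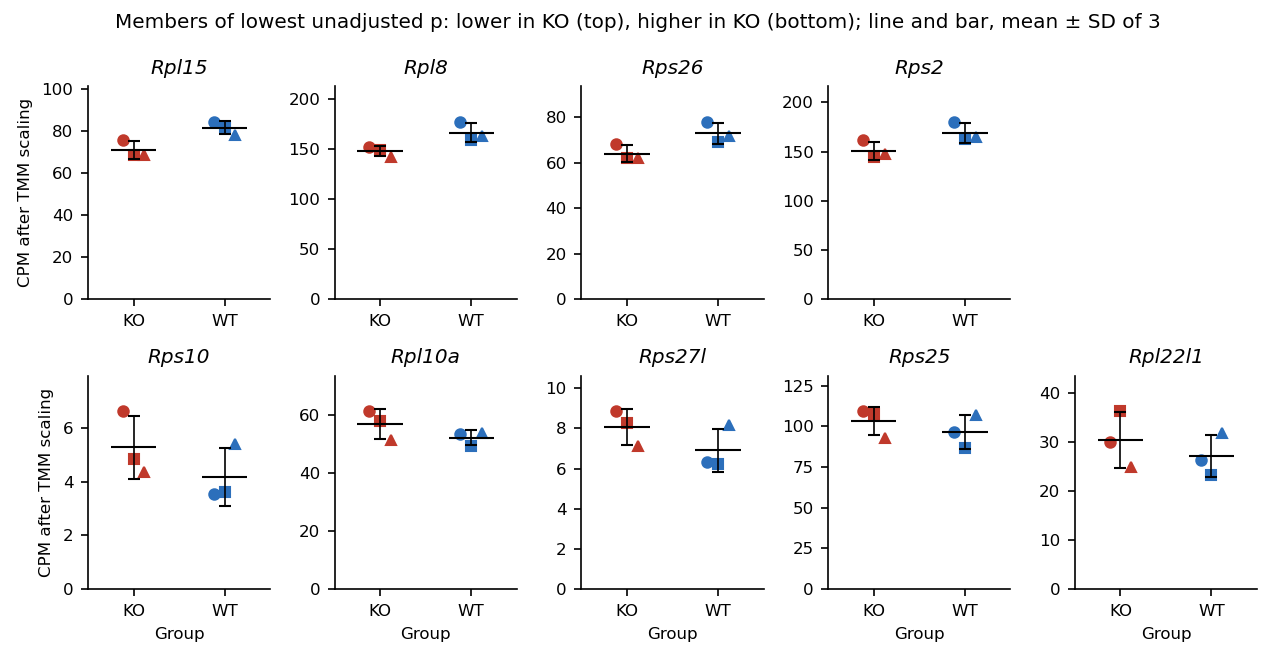
CPM after TMM scaling in each library for 4 of the 5 members of lowest unadjusted p that were lower in KO (top) and the 5 of lowest p that were higher in KO (bottom), on axes that start at 0; circle, square and triangle are replicates 1, 2 and 3, and the line and bar are mean ± SD of 3. KO and WT do not overlap in *Rpl15*, *Rpl8*, *Rps26* and *Rps2*, and overlap in the 5 genes of the bottom row.

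The genes of the stalk, which recruits elongation factors, did not pass the test. *Rplp0*, the base of the stalk, had 106 ± 5.81 CPM in KO, against 105 ± 9.16 in WT (SD, n = 3). *Rplp1* had 229 ± 12.4 and 239 ± 17.4 CPM, and *Rplp2*, the partner of *Rplp1*, 86.8 ± 6.25 and 89.8 ± 8.86 CPM. Their log2 fold changes were 0.01 ± 0.08, -0.06 ± 0.07 and -0.05 ± 0.08 SE, and the 95% intervals of all 3 lay between -0.23 and 0.18.

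Some members have a further role, and none of those named here was called, adjusted or unadjusted. *Rps6*, the substrate of the S6 kinases downstream of mTORC1, had 53.7 ± 4.01 CPM in KO, against 57.1 ± 3.09 in WT (log2 fold change -0.09 ± 0.08 SE). *Rpsa*, also described as a laminin receptor, had 149 ± 8.46 and 162 ± 13.3 CPM (-0.12 ± 0.08 SE). *Rps27a*, which is made as a fusion with ubiquitin, had 94.6 ± 5.12 and 91.7 ± 4.47 CPM (0.04 ± 0.07 SE). Over left-out libraries the log2 fold change ran from -0.14 to -0.03 for *Rps6*, from -0.18 to -0.07 for *Rpsa* and from 0.0039 to 0.083 for *Rps27a*. *Rpl41* had 185 ± 11.4 and 187 ± 29.2 CPM (-0.0038 ± 0.10 SE). Of the 4 members on the X chromosome, *Rps4x* had 101.5 and 102.8 CPM in the 2 libraries without Y-linked expression and 92.1 to 99.6 in the other 4. *Rpl10*, which joins the large subunit late in its assembly, had 100.2 and 96.0 CPM in those 2 and 86.8 to 94.4 in the other 4. *Rpl36a* and *Rpl39* overlapped between these libraries. Both of these libraries were among the 3 in which the members as a whole were high, and the part of that in these values was not tested.

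Some ribosomal protein genes have a paralogue or, for *Rps4x*, the annotated pseudogene *Rps4l*, and the balance of each pair was read as the second gene's share of the fragments of both. *Rpl22l1* held 28.2, 34.1 and 25% in KO, against 26.6, 23.9 and 28.7% in WT, the largest share of the pairs. *Rpl7l1*, a relative of *Rpl7* placed among biogenesis factors, held 19.3 ± 1.89% in KO and 18.6 ± 1.82% in WT (SD, n = 3). *Rps27l* held 11.7, 11.97 and 10.7% in KO and 9.61, 9.30 and 10.9% in WT, so that only KO replicate 3 lay within the WT range. *Rps4l* held 7.79 ± 1.64% against 7.15 ± 1.59%, and *Rpl3l*, known from muscle, 0.263 ± 0.0252% against 0.226 ± 0.0462%. In exact two-sided permutation tests over samples the p-values were 0.5 for *Rpl22l1*, 0.6 for *Rpl7l1*, 0.2 for *Rps27l*, 0.6 for *Rps4l* and 0.3 for *Rpl3l*. Each was 0.6 after adjustment over the 5 pairs, and 3 against 3 samples cannot give a p below 0.1. The core partners *Rpl3*, *Rpl7*, *Rpl10*, *Rpl22*, *Rpl39* and *Rps27* had log2 fold changes between -0.16 and 0.02.

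The make-up of the pool was also compared with each member scaled to the sum of all members, which takes out the shared shift of a library. On that scale no member passed the threshold in limma-voom, adjusted or unadjusted (0 of 81, lowest adjusted p = 0.818), against 6.58% of all genes unadjusted. The standard error was 0.10 for *Rpl15* and 0.22 for *Rps10*, against 0.07 and 0.23 with TMM scaling. This scaling was applied to all genes, whose variances the fit pools, so the absence of calls cannot show an unchanged make-up. Of the members described above, those of lowest unadjusted p were *Rps10* (log2 fold change 0.40 ± 0.22 SE), *Rpl10a* (0.17 ± 0.10 SE) and *Rps27l* (0.27 ± 0.17 SE) upward. The next was *Rpl15* (-0.16 ± 0.10 SE) downward. *Rpl10a* took 0.783, 0.794 and 0.731% of member fragments in KO and 0.685, 0.690 and 0.680% in WT, and *Rpl15* 0.971, 0.941 and 0.977% against a WT range of 0.990 to 1.150%. The shares of *Rps10* and *Rps27l* overlapped between KO and WT. How many of all genes do not overlap on this scale was not computed, and with TMM scaling it was 13%. The 5 most counted members held 15.9% of the member fragments, and the 10 most counted 27.6%.

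Genes that serve the same machine were read from lists made by hand, and 0 passed the adjusted threshold in limma-voom in each list named here. Of 4 ribosomal proteins that the name rule leaves out, 3 were lower and 1 higher, none unadjusted. *Fau* had 72.9 ± 6.41 CPM in KO, against 72.9 ± 5.51 in WT, and *Rack1*, the scaffold on the small subunit head, 121 ± 12 and 126 ± 4.04. *Rpl36al* had 1.96, 2.09 and 2.26 CPM in the KO libraries, against 1.96, 0.900 and 1.25 in WT, from 135 fragments in all (log2 fold change 0.66 ± 0.32 SE, unadjusted p = 0.0620 in limma-voom). Over left-out libraries its log2 fold change ran from 0.41 to 0.95.

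Ribosome biogenesis factors were lower in 22 of 32 genes with a median log2 fold change of -0.05, and none was called unadjusted. The one of lowest p, *Npm1*, a nucleolar chaperone, had 82.7 ± 3.12 CPM in KO, against 90.4 ± 4.17 in WT (-0.13 ± 0.07 SE, unadjusted p = 0.0879 in limma-voom). Other mRNAs with a TOP tract, mainly translation factors, were lower in 14 of 16 with a median of -0.05 and none called. *Eif3h*, a subunit of initiation factor eIF3, had 84.1 ± 5.51 and 92.0 ± 4.50 CPM (-0.13 ± 0.07 SE, unadjusted p = 0.101 in limma-voom). Of 7 snoRNA host genes 2 were lower and 5 higher, with none called, and *Snhg5* had 6.86 ± 0.297 and 5.87 ± 0.888 CPM. Of 77 mitochondrial ribosomal protein genes 59 were lower, with a median of -0.09 and 2 called unadjusted (both lower), a smaller share than the 3.44% of all genes called lower. The respiratory chain list gave 68 of 87 lower, a median of -0.07 and 5 called unadjusted (each lower), a share between the 3.44% called lower and the 7.81% called in either direction. Over all genes 48.1% were lower.

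The mTORC1 and LARP1 list had 7 of 15 genes lower, a median of 0.0006 and 2 called unadjusted, both lower, where 7.81% of all genes were called in either direction and 3.44% lower. *Eif4e*, which binds the mRNA cap, had 64.2, 67.5 and 65.3 CPM in the KO libraries, against 83.0, 80.4 and 73.6 in WT, so that the groups did not overlap, as in 6.29% of all genes tested with KO lower and 13% in either direction. limma-voom gave it -0.27 ± 0.07 SE on the log2 scale (unadjusted p = 0.00296, adjusted p = 0.635). The p53 targets, which respond when free ribosomal proteins inhibit Mdm2, were lower in 7 of 9 genes tested, with a median of -0.06 and 2 called unadjusted (both lower), against the same shares of all genes. *Phlda3*, a p53 target that inhibits Akt, had 9.79, 10.8 and 12.5 CPM in the KO libraries, against 13.8, 14.2 and 12.5 in WT, with the highest KO library just below the lowest WT library (-0.30 ± 0.13 SE, unadjusted p = 0.0367 in limma-voom).

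Markers of other cell types were set beside these values. All 6 oligodendrocyte markers and all 6 astrocyte markers were higher in KO, with medians of 0.19 and 0.09 and none called unadjusted. The oligodendrocyte sum was 2177 to 2523 CPM in KO and 1693 to 2801 in WT, and the astrocyte sum 4076 to 4472 and 3827 to 4474. All 7 striatal markers were higher in KO (median 0.44), with 1 called unadjusted, *Penk*. Of the 8 neuron markers 6 were lower, with 2 called unadjusted, both lower, *Nrgn* among them. These counts stand against 7.81% of all genes called. Microglia (6 genes), endothelial (5), blood (5) and leptomeningeal (5) markers had 0 called, as had the 3 choroid plexus markers tested. The part of cell type composition in the member values was not tested.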

How the data were processed

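Each sample has a deposited table of unnormalized fragment counts by gene, a fragment being one read pair. Per the submitters' processing notes and the file headers, the authors checked reads with FastQC 0.11.8, aligned them with STAR 2.7.9a and counted exon fragments with featureCounts 1.6.0 (paired, reverse-stranded) on GENCODE M31 of GRCm39. The study's methods name an older build. The command in the headers sets no option for fragments that match several places or genes, which featureCounts leaves out by default. Symbols came from GENCODE M21 by gene identifier (52073 of 56923 genes), and 50-base stretches were compared between its transcripts.

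Groups came from the sample titles. The 19084 genes with at least 6 fragments in at least 1 library were scaled by TMM (edgeR 4.0.16) and tested in limma-voom (limma 3.58.1, R 4.3.3), KO against WT, without covariates and two-sided. The filter and test follow the study's methods, which name edgeR and voom for normalization but do not name TMM. Benjamini-Hochberg adjustment over all genes and a threshold of 0.05 were chosen here. The fit was tested on simulated data. Members and lists were chosen with earlier results of these data known. Genes were named by rule: the 5 of lowest p in each direction, the highest 5 and lowest 3 levels per kilobase, paralogue pairs, stalk genes, *Rpsa*, *Rps27a*, *Rps6*, *Rpl41*, those beside the minimum of 60 fragments, and the lowest p of each further list. *Rpl13a*, *Rpl36a*, *Rps3* and *Rpl35* were named after their values were seen. Some members are not reported or drawn here. Alternatives were edgeR, DESeq2 1.42.0, other scalings, filters and weights, covariates, removal of trends and leaving out each library.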

Additional observations from a re-analysis of the deposited data

How the results depend on the processing

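No member passed the adjusted threshold in limma-voom or in any of the 20 alternatives, over which the lowest adjusted p was 0.312 (without WT replicate 3). The unadjusted count of 5 was 1 with library totals alone (7.81% of all genes), 0 with the summed ribosomal protein fragments as scaling (6.58%), 1 with trends with length, GC content and level removed (6.51%), and 1 to 9 when each library was left out. It was 7 (8.64%), each lower in KO, in the 4 libraries with Y-linked expression, above the 3.77% of all genes called there in either direction and the 1.41% lower. The median log2 fold change ran from -0.09 to -0.01 over left-out libraries and was 0.01 only with the trends removed, which changed its sign. The log2 ratio of summed CPM ran from -0.088 to -0.0099 over left-out libraries and was -0.019 with library totals alone. The median level per kilobase was 101 with the coding transcript length. The replicate numbers were not used as pairs in the main fit. Same-numbered samples correlated at 0.320, 0.077 and -0.026, and differently numbered ones at -0.250 to 0.224. With 3 samples a group these values cannot show whether the numbers pair the samples. The fit with a replicate block called 5 members unadjusted (8.87% of all genes) and 0 adjusted, with a median of -0.05.

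Among the genes named by rule, the log2 fold change reversed as follows, and the cause was not tested. With library totals alone it was 0.022 for *Rpl41*, 0.012 for *Rpl17*, 0.024 for *Rps27* and 0.025 for *Fau*. With the summed ribosomal protein fragments as scaling it was 0.041 for *Rpl41*, 0.031 for *Rpl17*, 0.015 for *Rpl3*, 0.0059 for *Rpl7*, 0.015 for *Rpl22*, 0.042 for *Rps27* and 0.042 for *Fau*. With a filter of 1 fragment it was 0.00020 for *Rpl41*, 0.0037 for *Rps27* and 0.0047 for *Fau*. With sample quality weights it was 0.0030 for *Rpl41*. With the trends removed it was 0.0021 for *Rpl4*, 0.080 for *Rpl41*, 0.070 for *Rpl17*, 0.042 for *Rpl3*, 0.022 for *Rpl7*, 0.016 for *Rpl22*, 0.046 for *Rps27*, 0.016 for *Rps4x*, 0.023 for *Rplp2* and 0.039 for *Fau*. In the 4 libraries with Y-linked expression it was 0.084 for *Rpl24* and -0.010 for *Rpl10*. *Rps3*, *Rpl36a* and *Rpl13a*, named outside the rule and given no fold change, also changed sign in 1 or more alternatives. Over left-out libraries the range was -0.13 to 0.089 for *Rpl41*, -0.087 to 0.081 for *Rpl17*, -0.14 to 0.25 for *Rps4l*, -0.43 to 0.0066 for *Rpl24*, -0.066 to 0.069 for *Rpl7l1*, -0.075 to 0.018 for *Rpl3*, -0.038 to 0.047 for *Rpl10*, -0.057 to 0.0075 for *Rpl22*, -0.053 to 0.048 for *Rps27*, -0.048 to 0.076 for *Rplp0*, -0.10 to 0.033 for *Rplp2* and -0.072 to 0.053 for *Fau*.

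Few counted fragments limit *Rps10*, *Rpl24* and the named genes below the minimum, and 3 samples a group limit every comparison. By the default of featureCounts, fragments that match several places are not counted, and their part in the members' levels was not tested.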
